A study of Mus musculus with 4 samples.

Results

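The Alg genes encode enzymes that build the sugar precursor of N-linked glycans. The 10 genes described here, Alg1, Alg2, Alg3, Alg5, Alg6, Alg8, Alg9, Alg11, Alg12 and Alg14, were taken by symbol from the 22180 genes with a probe set of their own, and each had exactly 1 probe set. They were selected on the measured values of Alg12, which was lower on the 20 µM array and not on the 10 µM array, so the differences of the 10 genes from vehicle are given as a description, and nothing is supported by the calls of the limma fits over all genes that are given for them. The cells were N9, an immortalised line of mouse microglia, which are the resident macrophages of the brain. The groups were vehicle with 2 arrays and nimodipine at 10 µM and at 20 µM with 1 array each, and the labels give no genetic change. Nimodipine belongs to the dihydropyridines, blockers of voltage-gated calcium channels of the L type. The labels give neither the length of exposure nor which vehicle array belongs to which dose, nor whether the vehicle arrays came from separate cultures.

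N-glycosylation starts at the membrane of the endoplasmic reticulum (ER), where a branched glycan is assembled sugar by sugar on the lipid dolichol. The first steps take place on the cytosolic face, the lipid-linked glycan is then turned into the lumen, and further mannoses and glucoses are added there before the oligosaccharyltransferase moves the whole glycan onto asparagines of new proteins. The glycan then serves as a tag that lectin chaperones and glucosidases read during protein folding, so the pathway is tied to ER quality control. In humans, inherited loss of these enzymes causes congenital disorders of glycosylation. Many receptors on the surface of microglia carry N-glycans.

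All values are log2 expression after robust multi-array averaging (RMA), which sets all arrays to a common distribution. The median of all deposited values was 5.04, the array medians lay between 5.02 and 5.06, and all 10 genes had a mean above that overall median. A mean at or above it was found for 12764 of all 22180 genes. A probe set's level depends on its probes, so levels are compared between arrays and not between genes. Of 12 microglia and macrophage markers, 10 had a mean at or above the overall median, among them Csf1r and Cd68. P2ry12 stood between 4.34 and 4.82 and Tmem119 between 4.57 and 4.79, below it, although both are defining genes of microglia in the brain. Of 23 measured markers of neurons, astrocytes, oligodendrocytes, fibroblasts and endothelium, 12 were at or above the median, and the highest value was 7.70, for Mbp. Their part in the results was not tested. In RNA from whole cultures, fewer cells of a type and less RNA per cell cannot be told apart.

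Alg12 had the widest range over the arrays of the 10 genes. It encodes the mannosyltransferase that adds the eighth mannose in the ER lumen. Its level was 9.37 and 9.40 in vehicle, 9.90 with 10 µM and 8.34 with 20 µM nimodipine. The 10 µM value lay above both vehicle arrays and the 20 µM value below both, while the vehicle arrays differed by 0.03. The difference from the vehicle mean of 9.39 ± 0.02 (SD, n = 2) was 0.52 at 10 µM, or 1.43-fold higher, and -1.04 at 20 µM, or 2.06-fold lower. Between the nimodipine arrays, 20 µM was 2.95-fold lower than 10 µM. The difference at 20 µM was the 10th lowest of 22180 genes, and the 7th lowest of the 12764 genes with a mean at or above the overall median. Between the vehicle arrays, 15 of the 22180 genes were lower in vehicle 2 than in vehicle 1 by at least 1 log2 unit. Alg12 was 1 of 11 genes whose 20 µM value lay at least 1 log2 unit under the vehicle mean (0.0496% of genes). It lay just past that limit, and with cyclic loess scaling its difference was -0.99. Nothing is read from that count for the Alg genes, since the difference chose them.

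The promoter of Alg12 is shown because it was the only one among the Alg genes listed in the promoter table that held a known ER stress motif. RefSeq promoter windows on GRCm38.p6 run from 250 bases before a gene's start through the 50 bases that begin with it, and 8 of the 10 genes were listed. The ER stress response element (ERSE) was searched as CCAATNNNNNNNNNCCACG on both strands. It is bound by NF-Y and by ATF6, of which ATF6 is a factor of the unfolded protein response. In the windows below, capitals mark the 5 letters at either end of the element. The first is Alg12 at chr15:88819269-88819568 on the minus strand. The other is Creld2 at chr15:88819396-88819695 on the plus strand, where the element is read from the opposite strand.
Alg12: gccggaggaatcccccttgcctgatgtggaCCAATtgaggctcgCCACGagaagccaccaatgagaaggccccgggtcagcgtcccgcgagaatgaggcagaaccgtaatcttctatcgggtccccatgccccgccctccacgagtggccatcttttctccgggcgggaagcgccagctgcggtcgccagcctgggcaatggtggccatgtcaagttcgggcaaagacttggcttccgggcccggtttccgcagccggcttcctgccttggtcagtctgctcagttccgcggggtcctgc
Creld2: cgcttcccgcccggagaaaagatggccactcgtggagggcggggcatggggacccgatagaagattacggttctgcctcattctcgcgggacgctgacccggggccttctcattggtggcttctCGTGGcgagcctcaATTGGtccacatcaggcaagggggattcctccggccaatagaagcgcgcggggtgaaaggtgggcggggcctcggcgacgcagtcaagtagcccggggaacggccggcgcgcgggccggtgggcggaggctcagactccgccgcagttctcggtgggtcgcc
The element lay from 220 to 202 bases before the Alg12 start and from 126 to 108 bases before the Creld2 start. Of all 32851 windows, 39 (0.119%) held an ERSE. The related motifs ATTGGNCCACG (ERSE-II, 0.0365% of windows), TGACGTGG (a core of the unfolded protein response element, 0.676%) and TGATGNAA (a core of the element bound by ATF4 with C/EBP factors, 3.97%) were in none of the 8 Alg windows. A match says only that these letters are present.

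Creld2, which encodes an ER-resident protein known to be induced by ER stress, begins 328 bases from Alg12 and is read in the other direction, so both genes share 173 bases of these windows. The level of Creld2 was 8.69 and 8.98 in vehicle, 9.12 with 10 µM and 9.01 with 20 µM nimodipine. Both nimodipine values exceeded both vehicle values, at either dose by less than the vehicle arrays differed from each other (0.29). The differences from the vehicle mean were 0.52 at 10 µM and -1.04 at 20 µM for Alg12, beside 0.28 and 0.18 for Creld2. The genes sharing this stretch were thus both higher than the vehicle mean on the 10 µM array and lay on opposite sides of it on the 20 µM array. Creld2 was picked for its place next to Alg12, and the difference between them was not tested.

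**Figure D1:**
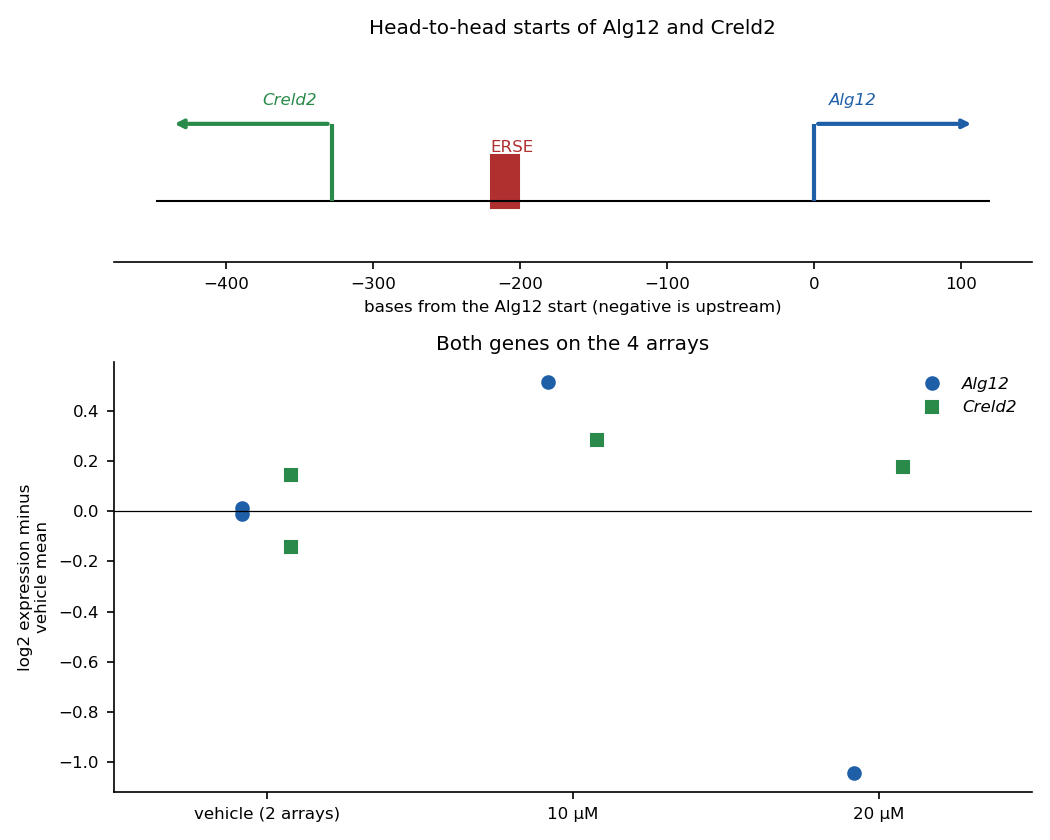
The upper panel maps the starts of Alg12 and Creld2 with the ERSE between them, in bases from the Alg12 start, and arrows give the direction of reading. The lower panel plots log2 expression minus the vehicle mean for each array (circles Alg12, squares Creld2); at 20 µM Alg12 sits at -1.04 and Creld2 at 0.18.

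Alg3 and Alg9 act beside Alg12 in the lumen and also take mannose from dolichol phosphate mannose. Alg3 adds the first mannose there. It stood at 10.87 and 10.98 in vehicle, 11.28 at 10 µM and 10.70 at 20 µM, so that the 10 µM array was above both vehicle arrays and the 20 µM array below both. Its differences from the vehicle mean were 0.35 and -0.23, beside 0.11 between the vehicle arrays. Alg9, which acts both before and after Alg12, stood at 8.04 and 8.28 in vehicle, 8.45 at 10 µM and 8.61 at 20 µM. It was the only one of the 10 genes with both nimodipine arrays above both vehicle arrays, a placing shared by 19.2% of all genes. Its differences were 0.29 at 10 µM and 0.45 at 20 µM, beside 0.24 between the vehicle arrays. At 20 µM Alg9 and Alg12, whose enzymes act in alternating steps, lay on opposite sides of vehicle, 1.37-fold higher and 2.06-fold lower. Alg9 also has a head-to-head neighbour in the promoter table, Gm38476, and Alg3 has Eef1akmt4, neither with a probe set of its own here.

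Alg5, Alg6 and Alg8 serve the glucoses that end the precursor. Alg5 makes the lipid donor dolichol phosphate glucose. It stood at 8.06 and 8.26 in vehicle, 8.58 at 10 µM and 8.23 at 20 µM. The 10 µM array was above both vehicle arrays, with a difference of 0.42, and the 20 µM array lay between them. Alg6 adds the first glucose and stood at 7.54 and 7.68 in vehicle, 7.79 at 10 µM and 7.65 at 20 µM. It had the same order of arrays as Alg5, with a smaller difference at 10 µM of 0.19. For Alg5 and Alg6 the differences at 20 µM were 0.07 and 0.04, and each changed sign when vehicle 1 was left out. Alg8, which adds the following glucose, stood at 9.33 and 9.43 in vehicle, 9.78 at 10 µM and 9.09 at 20 µM. As for Alg3 and Alg12, its 10 µM array was above both vehicle arrays and its 20 µM array below both, with differences of 0.40 and -0.29 beside 0.10 between the vehicle arrays. Exosc8, a subunit of the RNA exosome that starts 175 bases from Alg5 in the other direction, stood between 8.26 and 8.33 on all arrays.

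On the cytosolic face, Alg14 anchors the enzyme that adds the second N-acetylglucosamine. It stood at 7.56 and 7.36 in vehicle, 6.90 at 10 µM and 7.24 at 20 µM. Both nimodipine arrays were below both vehicle arrays, by 1.47-fold at 10 µM and 1.16-fold at 20 µM relative to the vehicle mean. The vehicle arrays themselves differed by -0.20, about as much as 20 µM differed from the vehicle mean (-0.21). Alg1, which adds the first mannose, stood at 8.18 and 8.20 in vehicle, 8.25 at 10 µM and 8.15 at 20 µM, and its difference of -0.04 at 20 µM turned to 0.02 with cyclic loess scaling. Alg1 had the narrowest range over the 4 arrays. Alg2, which adds the mannoses that branch from it, stood at 7.53 and 7.24 in vehicle, 7.86 at 10 µM and 7.02 at 20 µM. Its differences were 0.48 and -0.36, but its vehicle arrays also differed by -0.29. Alg11, which completes the cytosolic mannoses, stood at 7.89 and 7.79 in vehicle, 7.71 at 10 µM and 7.66 at 20 µM. Both nimodipine arrays were again below both vehicle arrays, with differences of -0.13 and -0.18. Alg11 and Alg14 were the 2 of 10 genes with this placing, which 18.2% of all genes had.

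**Figure D2:**
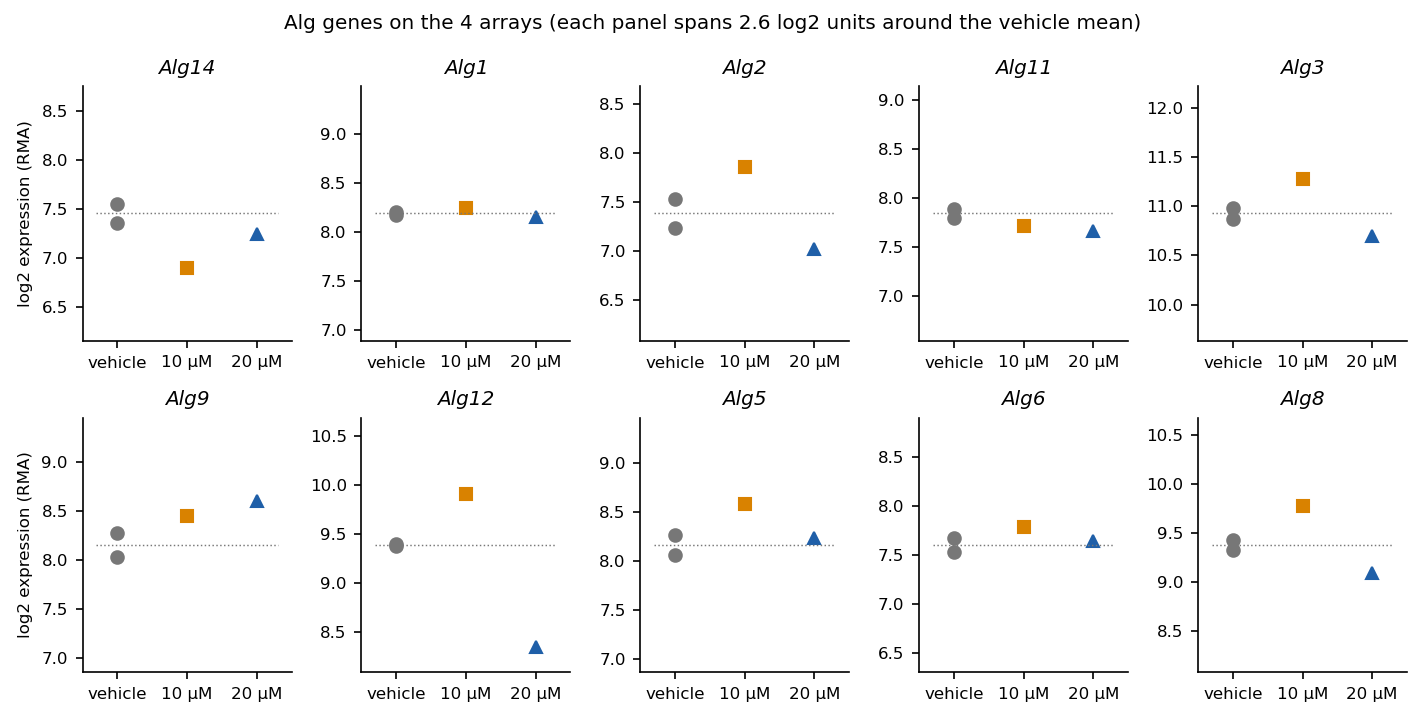
Log2 expression of the 10 Alg genes on each array, with circles for the 2 vehicle arrays, a square for 10 µM, a triangle for 20 µM and a dotted line at the vehicle mean. Every panel spans the same height in log2 units; Alg12 runs between 8.34 at 20 µM and 9.90 at 10 µM, Alg1 between 8.15 and 8.25.

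At 10 µM, 8 of the 10 genes were above both vehicle arrays (39.1% of all genes) and 2, Alg11 and Alg14, below both (35.4%). The median difference of the 10 genes was 0.32, beside 0.01 for all genes. None differed by 1 or more, which 1.57% of genes did. At 20 µM only Alg9 was above both vehicle arrays (34.5% of all genes), and 7 were below both (35.1%), with a median difference of -0.20 beside 0.00 for all genes; without vehicle 1 the median of the 10 genes was -0.12. In this pair of comparisons the same vehicle arrays serve for both doses, and the counts and medians include Alg12, whose values chose the 10 genes. Set directly against each other, the 20 µM array was lower than the 10 µM array for 8 of the 10 genes, all except Alg9 and Alg14, and for 49.9% of all genes. Alg12 was the only one lower at 20 µM than at 10 µM by 1 or more (0.676% of genes), and Alg2 followed with a difference of -0.84. Between the vehicle arrays the 10 genes had a median difference of 0.06 and none reached 1 (0.113% of genes). The widest gap between the vehicle arrays in any of the 10 genes was 0.29, for Alg2.

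**Figure D3:**
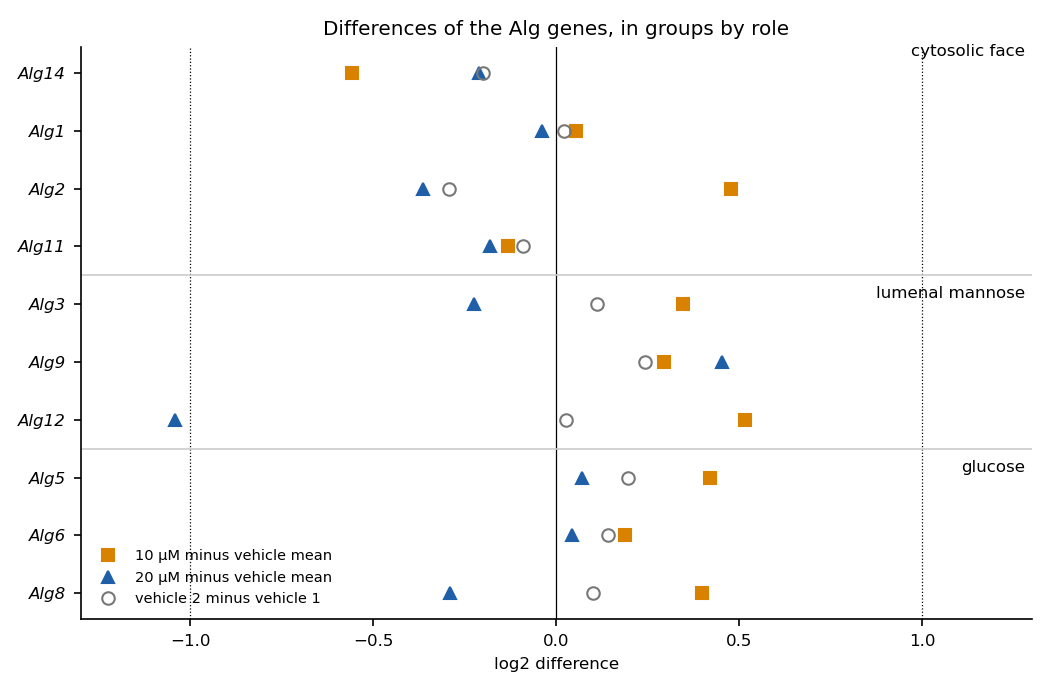
Log2 differences of each Alg gene, in groups by role: 10 µM minus the vehicle mean (squares), 20 µM minus the vehicle mean (triangles) and vehicle 2 minus vehicle 1 (open circles), with dotted lines at -1 and 1. Alg12 at 20 µM, at -1.04, is the only symbol past a dotted line.

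With both nimodipine arrays taken as 1 group against both vehicle arrays, limma with Benjamini-Hochberg adjustment called 0 of 22180 genes (0%) and so none of the 10. Without adjustment 1191 genes had a p under 0.05, and 1 of the 10, Alg9, was among them; that number was 0 without either vehicle array, with dim probe sets left out or with a trend in eBayes. With the doses pooled, the difference between them counts as spread. In this fit Alg12 differed by -0.26 ± 0.47 (SE, 2 arrays per group), since its nimodipine arrays lay on opposite sides of vehicle. In a fit of 3 groups, where the spread comes from the vehicle pair alone (residual df 1) and is taken to hold for each dose, limma called 353 genes at 10 µM (1.59%) and 0 at 20 µM (0%), and none of the 10 genes at either dose. Nothing is read from the unadjusted p-values of this fit for the 10 genes, since these include Alg12, whose difference at 20 µM chose them.

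Outside the Alg genes described above, the steps around them were read from 5 lists with 63 measured genes of 64. By limma, 0 of the 63 genes passed for nimodipine against vehicle, and 3 had an unadjusted p under 0.05 (1191 of all 22180 genes). At 10 µM 1 of the 63, Gnpnat1, differed by 1 or more, which 1.57% of all genes did. The Alg genes had median differences of 0.32 at 10 µM and -0.20 at 20 µM, beside -0.02 and -0.05 for the 63 genes. Alg12, whose values chose the Alg genes, is inside their medians, and the lists were not chosen by it, so nothing is read from this contrast.

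Gnpnat1 makes N-acetylglucosamine phosphate on the way to the sugar donor of the first steps. It stood at 8.05 and 8.16 in vehicle, 9.57 at 10 µM and 7.96 at 20 µM. It was 2.75-fold higher at 10 µM (limma, 3 groups, adjusted p = 0.0216) and 1.11-fold lower at 20 µM. The p rests on 1 array at 10 µM and on the gap between the 2 vehicle arrays, for this gene and, through eBayes, for all genes. The difference of Gnpnat1 at 10 µM thus has no replicate check. Its 10 µM value was far above both vehicle arrays and its 20 µM value slightly below both. The 12 genes of sugar supply had medians of -0.09 and -0.10 at the doses, 4 higher and 8 lower at each. Ugp2, which makes UDP-glucose, differed by -0.42 at 10 µM and -0.13 at 20 µM. Pmm2, a phosphomannomutase, differed by -0.17 and 0.34, and Mpi, the mannose phosphate isomerase before it, by -0.25 and 0.05.

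Among 12 other genes of assembly and dolichol supply, 7 were higher and 5 lower at 10 µM, while at 20 µM 6 were higher and 6 lower, with medians of 0.06 and -0.03. Mpdu1, needed for the use of the dolichol-linked mannose and glucose donors, stood at 7.58 and 7.65 in vehicle, 8.07 at 10 µM and 8.02 at 20 µM. Like Alg9, it had both nimodipine arrays above both vehicle arrays, by 0.46 and 0.41 relative to the vehicle mean. Dpm2, a regulatory subunit of dolichol phosphate mannose synthase, differed by 0.23 and -0.41, with the same signs as Alg12. Dolk, which makes dolichol phosphate, differed by -0.32 and -0.18, and Dhdds, a subunit of the enzyme that makes the dolichol chain, by -0.30 and 0.04. Of the Alg genes not among the 10, Alg10b, which adds the last glucose, differed by 0.06 and -0.06, and Alg13, the catalytic partner of Alg14, by -0.24 and -0.25. Dpagt1, which starts the precursor, differed by 0.27 and -0.15. Dpagt1, Alg10b and Alg13 were named for their place in the pathway after their values were seen.

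In the oligosaccharyltransferase, which moves the finished glycan, 7 of 12 genes were higher and 5 lower at 10 µM, while at 20 µM 5 were higher and 7 lower (medians 0.03 and -0.02). Krtcap2 and Ostc, accessory subunits of the STT3A form, were 1.64-fold and 1.47-fold higher at 10 µM, and differed by -0.04 and -0.34 at 20 µM. Tmem258 differed by -0.40 at 10 µM, beside 0.30 between its vehicle arrays. Rpn1 stood at 10.14 on both vehicle arrays, 10.40 at 10 µM and 10.32 at 20 µM.

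Of 14 genes of trimming and lectin-assisted folding, 6 were higher and 8 lower at each dose, with medians of -0.10 and -0.02. Edem2, a mannosidase that starts glycan trimming of misfolded proteins, stood at 10.20 and 10.19 in vehicle, 9.71 at 10 µM and 10.46 at 20 µM. Its order of arrays was the reverse of that of Alg12. Ngly1, which strips N-glycans from proteins removed from the ER, differed by -0.11 at 10 µM and -0.57 at 20 µM, where it was 1.49-fold lower. Pdia3, an oxidoreductase that works with the lectin chaperones, and Man1b1, an ER mannosidase, differed by 0.30 and 0.24 at 10 µM and by -0.04 and -0.15 at 20 µM.

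Of 13 Golgi enzymes that remodel the glycan, 6 were higher and 7 lower at 10 µM, while at 20 µM 5 were higher and 8 lower, with medians of -0.21 and -0.11. Man1a, a Golgi mannosidase, stood at 7.28 and 7.39 in vehicle, 6.68 at 10 µM and 7.05 at 20 µM, and was 1.58-fold and 1.22-fold lower. Mgat4a and Mgat2, which start antennae, were 1.56-fold and 1.44-fold lower at 10 µM and differed by -0.12 and -0.04 at 20 µM. St6gal1, which caps antennae with sialic acid, differed by -0.50 and -0.39. B4galt1, which adds galactose, differed by -0.35 at 20 µM, the size of the gap between its vehicle arrays (-0.36).

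**Figure D4:**
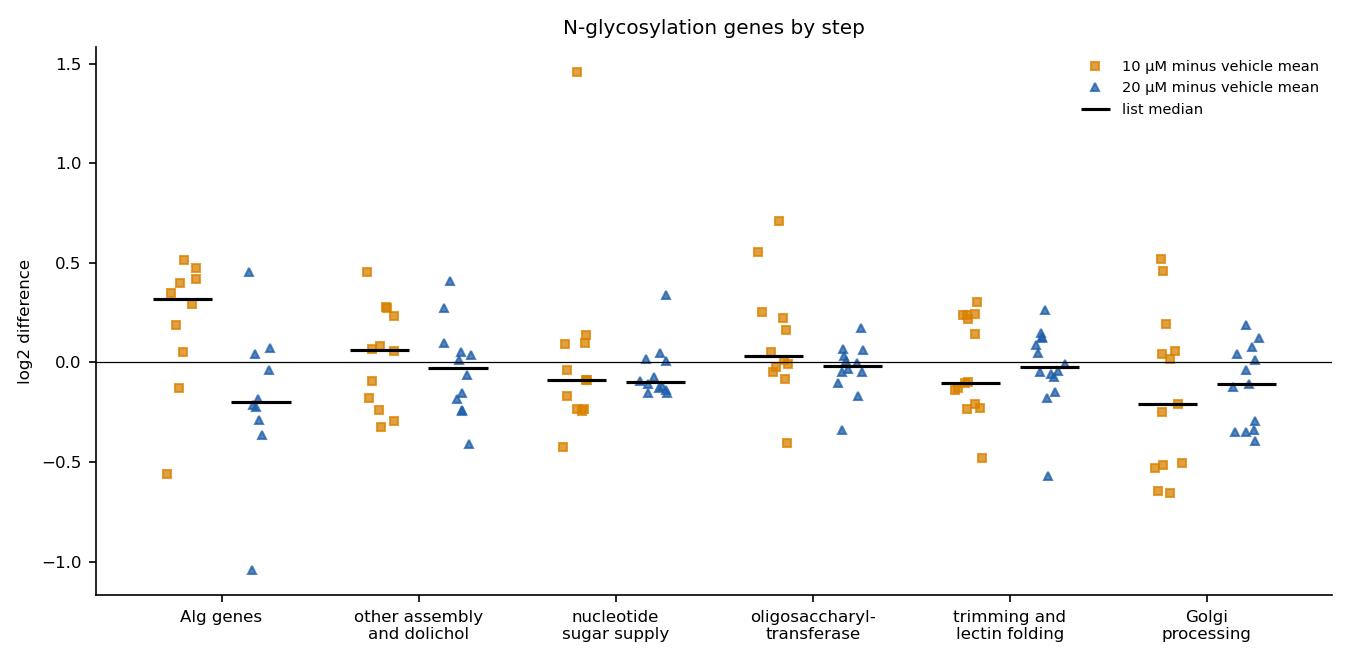
Log2 differences from the vehicle mean at 10 µM (squares) and 20 µM (triangles) for the 10 Alg genes and the 5 lists of surrounding steps, 1 symbol per gene, with bars at list medians. The Alg genes, with Alg12 that chose them included, have medians of 0.32 and -0.20, and the highest symbol, in sugar supply, is Gnpnat1 at 10 µM.

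The genes with a pattern nearest to Alg12 were sought by the distance between their 4 centred log2 values, among 11681 genes at or above the overall median. Nearest were Tmem98 (distance 0.18 on the log2 scale), Ppif (0.19), Zdhhc24 (0.35), Stxbp3-ps (0.36) and Napb (0.40). Ppif, the cyclophilin of the mitochondrial matrix, stood at 9.51 on both vehicle arrays, 9.82 at 10 µM and 8.30 at 20 µM. Tmem98 stood at 7.66 and 7.54 in vehicle, 7.94 at 10 µM and 6.52 at 20 µM. Both were thus lower at 20 µM by more than 1 and higher at 10 µM than either vehicle array. Napb, a protein of vesicle fusion, differed by 0.81 and -0.63. Stxbp3-ps is named as a pseudogene, and its probes may read its parent gene. Among the Alg genes, Alg2 was the closest to Alg12 at distance 0.64, followed by Alg8 at 0.70 and Alg3 at 0.77, with 110, 194 and 471 of all other genes closer. With 4 arrays, likeness of this kind is a description only.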

How the data were processed

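RNA of N9 cells was hybridised to 4 Affymetrix arrays. Per the labels, RNA came from TRIzol extraction and the WT PLUS kit was used for labelling. The deposited log2 values, 1 per probe set and array, were made by the authors by RMA in Affymetrix Expression Console (version 1.2.1.20), per the submitters' processing notes; RMA removes any shift common to most genes. Of 41345 probe sets, 23521 had exactly 1 gene symbol in the array annotation; the one with the highest mean was taken per gene (22180 genes). Each dose has 1 array, and its difference from the vehicle mean has no replicate check. A limma fit of 3 groups (residual df 1) is an alternative that borrows the spread of the vehicle pair. In that fit eBayes draws the spread of each gene toward the spread of the vehicle pair over all genes. limma 3.58.1 (R 4.3.3, lmFit and eBayes) compared nimodipine with vehicle over all genes, with Benjamini-Hochberg adjustment at 0.05; the spread behind its p-values is that between these arrays and may be technical. limma was tested on simulated data. Motifs were searched with Python 3.11.15.

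The members and the gene lists were chosen with earlier results of these data known. From each surrounding list the text names up to 3 genes by absolute difference at 10 µM and up to 2 at 20 µM, with means at or above the overall median, and it names the 5 genes nearest to Alg12. Predicted genes and small RNAs were passed over among the genes nearest to Alg12. The motif search and the neighbouring genes were added after the values were seen. The alternatives were averaging all probe sets of a gene, equal array medians, cyclic loess, a filter on dim probe sets, leaving out arrays, eBayes with a trend or robust, 3 groups, dose as a number and a threshold of 0.1. 1 listed gene is not reported here. The number of arrays limits the precision.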

Additional observations from a re-analysis of the deposited data

How the results depend on the processing

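The count of genes called by limma for nimodipine against vehicle was 0 with all arrays and 353 when the 20 µM array was left out or when 10 µM was set against vehicle in a fit of 3 groups, which give the same comparison; it was 0 under every other alternative run, and over the arrays left out it lay between 0 and 353. The Alg genes called were 0 under every alternative run. The Alg12 difference at 20 µM was -1.07 with equal array medians and -0.99 with cyclic loess, which left 0 Alg genes lower by 1 or more, and between -1.06 and -1.03 without a vehicle array. At 10 µM it was 0.48 with equal array medians and 0.56 with cyclic loess, and between 0.50 and 0.53 without a vehicle array. The median of the 10 genes kept its sign at both doses under every alternative run; without a vehicle array it lay between -0.20 and -0.12 at 20 µM and between 0.23 and 0.37 at 10 µM, the smaller sizes being those without vehicle 1. The filter on dim probe sets and averaging all probe sets of a gene changed no level or difference of the 10 genes, since each had 1 probe set above the median. No paired analysis was possible because the nimodipine arrays carry no replicate number. With 1 array per dose, no difference at a single dose has a replicate check.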

Other observations

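In all, 37 genes of the RefSeq promoter table had an ERSE in a window, and 29 of them were measured, Alg12 included. The elements of well-known ER genes are shown beside that of Alg12 to show how far the letters between their ends differ; capitals mark the ends.
Alg12: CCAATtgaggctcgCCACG
Hspa5: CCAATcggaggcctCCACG
Calr: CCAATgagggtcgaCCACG
Pdia6: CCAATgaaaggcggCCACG
Dnajc3: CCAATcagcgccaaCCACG
Syvn1: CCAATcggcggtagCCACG
Of the 29 genes, 20 were higher and 9 lower than the vehicle mean at 10 µM, with a median difference of 0.14 (all genes 0.01), and 15 were higher and 14 lower at 20 µM, with a median of 0.05 (all genes 0.00). Without Alg12, 19 of 28 were higher and 9 lower at 10 µM (median 0.10), and 15 were higher and 13 lower at 20 µM (median 0.07). Creld2 holds the same element as Alg12. The letters are also identical among Esp15, Esp16 and Esp18 and among Xlr3a, Xlr3b and Xlr3c, so the 29 are not all separate instances. Over all 22180 genes, 11620 exceeded the vehicle mean on the 10 µM array and 10940 on the 20 µM array. Some of the 29 were dim, with means under the overall median of 5.04, among them Esp16 (2.58), Xlr3b (3.05) and Olfr59 (3.33). Most of these dim genes were lower than the vehicle mean at 20 µM, such as Acnat2 (-0.23) and Esp15 (-0.25). Calr4 (0.16), Esp36 (0.36) and Xlr3b (0.20) were the dim ones above it. The counts of the 29 include these dim genes, and how the counts stand without them was not tested. Hspa5, the main chaperone of the ER lumen, stood at 10.25 and 10.36 in vehicle, 11.53 at 10 µM and 10.49 at 20 µM. Dnajc3, a co-chaperone of it, differed by 0.44 and 0.26, Pdia6, an oxidoreductase, by 0.28 and 0.11, and Calr, a lectin chaperone, by 0.24 and 0.12. These ER genes were picked by hand. Of others with an ERSE, Canx differed by 0.14 and 0.09, Derl3 by 0.64 and 0.66, Hsp90b1 by 0.04 and 0.05 and Ero1b by -0.13 and 0.14. At 20 µM Alg12 was at -1.04, the lowest difference of the 29, while Hspa5, Dnajc3, Pdia6 and Calr were above the vehicle mean. That place of Alg12 is not a result, since its difference at 20 µM chose it. Next lowest was Syvn1, a ubiquitin ligase of ER-associated degradation, at -0.67. Syvn1 stood at 8.69 and 8.48 in vehicle, 8.49 at 10 µM and 7.91 at 20 µM. The motif was chosen after the values of the Alg genes were known, and no test was made.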
